A study of Mus musculus with 12 samples.

Results

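Transcripts of 44 mitosis and spindle checkpoint genes were measured in 12 mouse neuroendocrine thyroid carcinomas. The genes were chosen by symbol: kinases, cyclins, checkpoint proteins, kinetochore and spindle proteins, condensin subunits and cytokinesis factors. All 44 were found among the 23284 genes of the deposited tables, and all 44 passed the filter on low counts, which left 14989 genes for testing. By genotype label 7 tumours were Rb1/Trp53 (called RP, and singly RP1 to RP7) and 5 were Rb1/Trp53/Crebbp (called RPC, and singly RPC1 to RPC5). Rb1, the retinoblastoma gene, and Trp53, the p53 gene, are named in both genotypes. The groups thus differ by label in Crebbp, a histone acetyltransferase and transcriptional coactivator. Which alleles and which Cre or other agent were used, and the age and sex of the mice, are not stated in the labels.

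The libraries held between 9.11 M and 57.3 M gene counts, RP5 being the deepest, and the smallest count of any member in any tumour was 71. The targeted gene was not lower in counts: Crebbp was 54.6 ± 20.04 CPM (SD, n = 7; CPM are gene counts relative to the scaled size of the library) in RP and 53.9 ± 4.19 CPM (SD, n = 5) in RPC tumours (log2 fold change -0.02 ± 0.20 SE; edgeR adjusted p = 0.957). Counts per gene cannot show the loss of single exons, so the labels are used as given and this level checks neither them nor the protein. Rb1 was not called either (log2 fold change 0.37 ± 0.17 SE; edgeR adjusted p = 0.137). Trp53 ranged from 23.2 to 35.8 CPM in RP and from 11.8 to 22.8 CPM in RPC tumours without overlap, RP5 standing at 33.0 and RPC4 at 22.8 CPM (log2 fold change -0.84 ± 0.17 SE; edgeR adjusted p = 0.00918). The labels do not say whether each tumour came from its own mouse, and the p-values describe only the variation among these 12 samples.

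A cell enters mitosis when the kinase Cdk1, bound to A- and B-type cyclins, is switched on by Cdc25 phosphatases. Aurora and Polo kinases then build the spindle, and the spindle checkpoint (Bub1, Bub1b, Bub3, Mad2l1 and Ttk) holds back the anaphase promoting complex until every kinetochore is attached. Most of these genes are transcribed late in the cell cycle. In quiescent cells the DREAM complex, which contains the Rb relatives p107 and p130, is known to repress them through a promoter element called the cell cycle genes homology region (CHR), and in cycling cells B-Myb, Foxm1 and the CCAAT-box factor NF-Y are known to activate many of them.

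The promoters are shown first because these elements were not used to choose the genes. RefSeq promoter windows of build GRCm38.p6, from 250 bases before to 50 bases after a start site, were matched by symbol for 36 of the 44 genes. The 8 genes without an entry were Ccna2, Cdc25c, Aurkb, Incenp, Foxm1, Kif20a, Tpx2 and Smc4. A CHR, searched as the letters TTTGAA or their variant TTCGAA on both strands, was present in 27 of 36 (75.0%), against 16.0% of the 10586 tested genes with a window. A CCAAT box on either strand was present in 26 of 36 (72.2%, against 42.7%), and both motifs in 24 (66.7%, against 7.86%). E2F-type motifs (the letters TTGGCGC, the variant TTCGCGC or the variant TTCCCGC, both strands) were present in 8 of 36 (22.2%, against 16.2%). None of these motifs contains another. A set of DNA replication genes, which peak earlier in the cell cycle, showed another mix, with a CHR in 6 of 27 (22.2%) and an E2F-type motif in 15 of 27 (55.6%). Of 90 other mitotic genes 48.9% held a CHR and 30.0% an E2F-type motif. A match to these letters is a description and not a shown binding site.

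**Figure D1:**
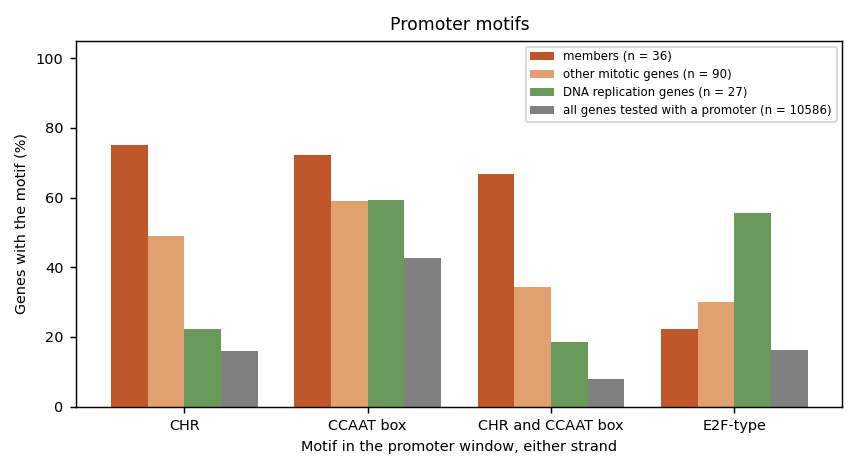
Share of genes whose promoter window holds each motif on either strand (y axis, percent), for the 36 members, 90 other mitotic genes, 27 DNA replication genes and 10586 tested genes with a window. The CHR bar is highest for the members (75.0%) and the E2F-type bar for the DNA replication genes (55.6%).

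Windows of 6 members on the gene strand, with CHR and CCAAT motifs in capitals (a CCAAT box on the opposite strand reads ATTGG, a CHR there TTCAAA), are given for 4 genes that were called higher in RPC tumours and for Bub3 and Cdc25b, the members with the smallest positive and the only negative log2 fold change. They lie at chr9:70421505-70421804, minus strand (Ccnb2), chr2:127831810-127832109, minus strand (Bub1), chr7:122159185-122159484, plus strand (Plk1), chr9:61946750-61947049, minus strand (Kif23), chr7:131560120-131560419, plus strand (Bub3) and chr2:131186698-131186997, plus strand (Cdc25b).
Ccnb2: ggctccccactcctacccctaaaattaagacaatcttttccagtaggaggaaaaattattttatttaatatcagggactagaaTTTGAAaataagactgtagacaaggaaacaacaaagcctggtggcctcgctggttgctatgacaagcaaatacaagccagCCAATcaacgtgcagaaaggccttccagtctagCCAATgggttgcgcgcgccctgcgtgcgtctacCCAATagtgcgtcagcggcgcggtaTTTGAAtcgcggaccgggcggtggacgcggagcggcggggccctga
Bub1: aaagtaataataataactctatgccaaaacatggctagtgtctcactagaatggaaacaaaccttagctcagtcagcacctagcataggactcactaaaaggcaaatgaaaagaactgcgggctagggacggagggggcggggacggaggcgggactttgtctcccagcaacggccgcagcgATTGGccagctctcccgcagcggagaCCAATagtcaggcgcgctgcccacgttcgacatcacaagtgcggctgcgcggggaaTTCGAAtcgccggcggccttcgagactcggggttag
Plk1: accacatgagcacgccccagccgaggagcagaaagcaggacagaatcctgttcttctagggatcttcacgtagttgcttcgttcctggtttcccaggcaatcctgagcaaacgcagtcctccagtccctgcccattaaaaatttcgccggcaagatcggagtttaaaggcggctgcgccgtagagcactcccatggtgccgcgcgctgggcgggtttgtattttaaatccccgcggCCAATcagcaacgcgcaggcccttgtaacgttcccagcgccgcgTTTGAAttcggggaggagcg
Kif23: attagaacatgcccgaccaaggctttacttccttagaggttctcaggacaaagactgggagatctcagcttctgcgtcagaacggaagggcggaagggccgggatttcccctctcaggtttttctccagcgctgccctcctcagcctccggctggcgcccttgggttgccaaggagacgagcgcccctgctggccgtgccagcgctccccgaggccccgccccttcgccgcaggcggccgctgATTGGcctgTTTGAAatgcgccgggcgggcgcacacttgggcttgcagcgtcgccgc
Bub3: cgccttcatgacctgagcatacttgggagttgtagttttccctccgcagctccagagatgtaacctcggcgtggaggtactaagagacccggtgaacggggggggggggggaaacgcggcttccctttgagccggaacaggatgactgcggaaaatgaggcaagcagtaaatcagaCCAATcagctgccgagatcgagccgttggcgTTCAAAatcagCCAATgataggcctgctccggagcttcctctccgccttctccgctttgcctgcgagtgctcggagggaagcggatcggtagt
Cdc25b: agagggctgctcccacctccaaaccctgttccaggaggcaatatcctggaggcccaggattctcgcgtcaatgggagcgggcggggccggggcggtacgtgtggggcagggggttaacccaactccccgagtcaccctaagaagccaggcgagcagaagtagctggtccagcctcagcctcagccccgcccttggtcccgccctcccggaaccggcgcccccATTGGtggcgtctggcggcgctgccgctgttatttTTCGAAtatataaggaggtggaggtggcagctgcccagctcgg
Ccnb2 held 3 CCAAT boxes beginning 87, 54 and 21 bases before the start site, and a CHR on each side of it, 167 bases before and 4 bases after. Bub1, Plk1 and Kif23 had CCAAT boxes upstream (2, 1 and 1) and a CHR 14, 30 and 2 bases after the start site. In Cdc25b the CHR also came after the start site, and in Bub3 it lay 43 bases before it, between 2 CCAAT boxes. Bub3 and Cdc25b also held both motifs, so their presence alone did not set apart the genes that were called. Among members with a window a CHR was found in 20 of 26 called and in 7 of 10 not called. A CCAAT box was found in 20 of the 26 and in 6 of the 10. On the gene strand alone the counts were 15 and 5 for a CHR, 15 and 2 for a CCAAT box. Both motifs were found there in 10 and 1. Whether these shares differ was not tested.

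In RPC tumours 32 of the 44 genes (72.7%) rose and none fell at an edgeR adjusted p under 0.05, where 9.64% of all tested genes were called higher and 8.61% lower. At an unadjusted p under 0.05 there were 40 members, each of them higher, beside 5336 of the 14989 tested genes in either direction. DESeq2 and limma voom with sample weights called 39 and 40 members higher and 0 lower. They called 13.3% and 22.0% of all tested genes higher. The log2 fold change was above 0 for 43 of 44, and its median was 1.04, a 2.06-fold difference, against -0.02 over all tested genes. The largest rises were those of Kif2c (2.56-fold), Bub1 (2.53-fold), Cenpf (2.498-fold), Kif11 (2.44-fold) and Aurkb (2.42-fold). The ranges of the groups overlapped for 44 of 44 genes, while 3.62% of all tested genes had each RPC tumour above each RP tumour and 2.64% each below. More cycling cells and more of these transcripts per cell cannot be told apart in bulk tumour RNA.

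**Figure D2:**
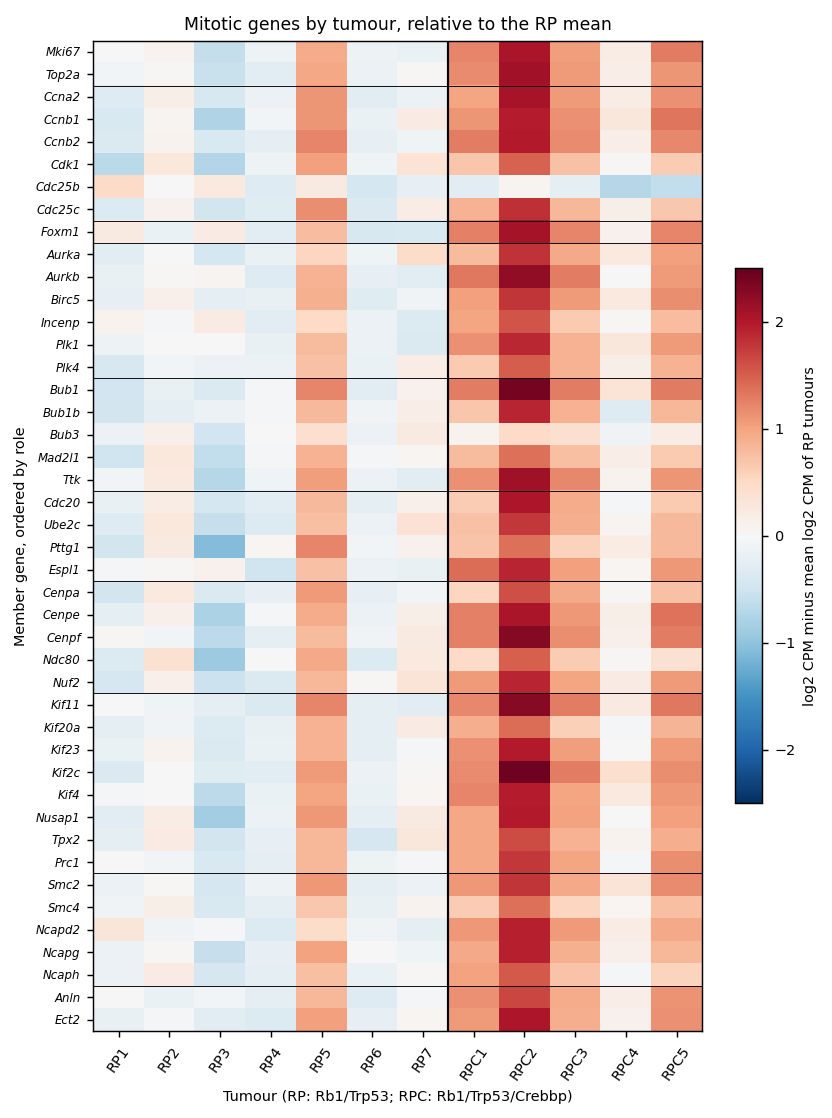
Each cell is the log2 CPM of 1 gene (row) in 1 tumour (column) minus the mean log2 CPM of the 7 RP tumours, with rows ordered by role and lines between roles. The RP5 column is red in each row, the RPC2 column is the darkest red in 43 of 44 rows, and the RPC4 column is close to white; Cdc25b departs from the other rows.

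The same tumours made up the overlap in most genes. RP5 was the highest RP tumour in 43 of 44 genes, Cdc25b being the exception. RPC4 was the lowest RPC tumour in 44 of 44, and RP5 stood above RPC4 in 44 of 44. RPC2 was the highest of all 12 tumours in 43 of 44. The median over members of the log2 difference from the RP mean was 0.87 in RP5, against -0.41 to 0.05 in the other RP tumours. It was 1.01 in RPC1, 1.90 in RPC2, 0.95 in RPC3, 0.13 in RPC4 and 1.06 in RPC5. RPC1, RPC3 and RPC5 exceeded RP5 in 25, 27 and 30 genes. The summed level of the members was 1599 to 3491 CPM in RP tumours (median 1940.2) and 2056, 3558, 3688, 3689 and 6495 CPM in the RPC tumours. RP3 was the lowest of all 12 tumours in 28 genes.

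Many calls were lost when 1 tumour was left out. Without RPC2 the number of members called higher went from 32 to 4 (Foxm1, Plk1, Cenpf and Ncapd2), while 3.67% of all tested genes were called higher and the median log2 fold change of the members was 0.77. The number was 17 without RPC1, 18 without RP4, 20 without RP6 and 21 without RP2. Of all tested genes these fits called 5.24%, 5.73%, 6.2% and 6.13% higher, against 9.64% with all tumours. Without RP5 the number of members was 41 and without RPC4 it was 39, where 9.43% and 11% of all tested genes were called higher. With 1 tumour left out, 43 of 44 fold changes stayed above 0 in each of the 12 fits, and the median ranged from 0.77 to 1.23. RP5 is the deepest library. With its counts thinned to the median depth of the others, a setting added after seeing the data, 33 members were called higher. That fit called 9.53% of all tested genes higher and kept 31 of the 32 main calls.

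**Figure D3:**
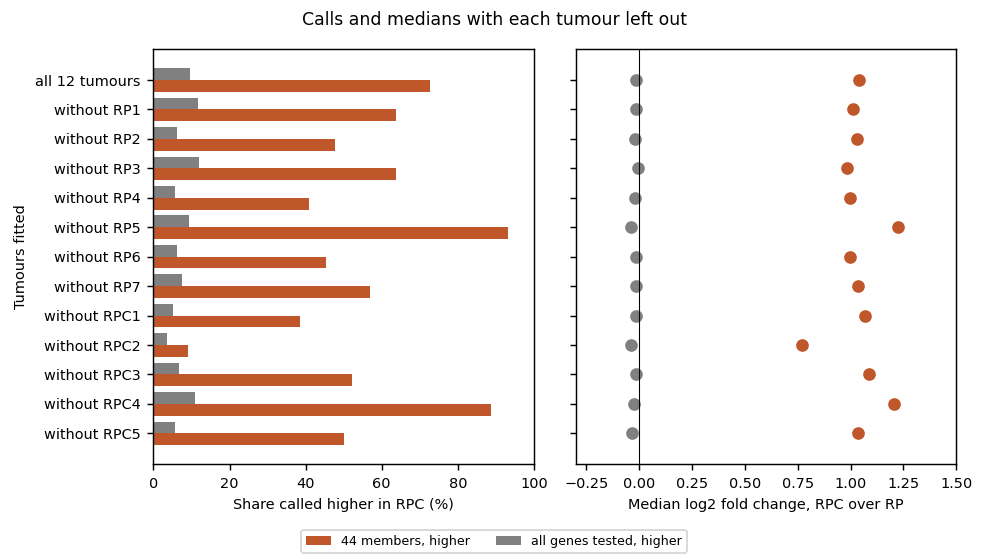
Left, share of the 44 members and of all tested genes called higher in RPC tumours (percent) with all tumours and with each left out; right, median log2 fold change of the members (orange) and of all tested genes (grey). The members' share falls to that of 4 genes without RPC2, while their median stays between 0.77 and 1.23.

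Markers of other cells were read against the 8.61% of all tested genes called lower. Of 14 tested thyroid follicular markers 2 fell, and their median log2 fold change was -1.74. The summed level of the follicular markers was 2045 to 9656 CPM in RP and 395 to 5969 CPM in RPC tumours. RPC4 was the highest RPC tumour. All 12 adipocyte markers fell, from a summed 100.5 to 2149 CPM to 77.4 to 159.7 CPM. The adipocyte sum was 100.5, 170.0 and 221.9 CPM in RP1, RP3 and RP5. In RP2, RP4, RP6 and RP7 it was 682 to 2149 CPM. Fibroblast markers (1 of 10 lower; 627 to 4672 against 564 to 2062 CPM), endothelial markers (2 of 10 lower; 121.0 to 260.2 against 69.4 to 208 CPM) and macrophage markers (0 of 10 called; 329 to 1514 against 262 to 663 CPM) overlapped between the groups. Lymphocyte markers (1 of 4 tested lower) summed to 22.7 to 60.9 CPM in RP and 9.50 to 13.3 CPM in RPC tumours, with no overlap, and Cd79a was the most abundant. Red blood cell markers (0 of 1 tested called) summed to 0.697 to 18.8 and 3.84 to 12.2 CPM, with Hba-a1 and Hba-a2 at 0 in all tumours. Reads without a unique alignment, 10.9% to 18.5% of each table, were given to no gene, so such a 0 does not show absence. C cell and neuroendocrine markers (1 of 10 lower), dominated by the calcitonin gene Calca, are those of the labelled tumour type. They summed to 96064 to 234217 CPM in RP tumours, where RP5 was lowest, and to 25548 to 138596 CPM in RPC tumours, where RPC4 was highest. When the follicular score was added to the edgeR fit no member was called (1 at an unadjusted p under 0.05), and the median log2 fold change of the members was 0.25. With the adipocyte score none was called (9 at an unadjusted p under 0.05) and the median was 0.77, and with the stromal and immune score 6 were called and the median was 1.03. These fits called 3, 57 and 1685 genes of all tested in either direction. Called higher were 2, 27 and 838 of them, or 0.0133%, 0.18% and 5.59% of all tested genes. At an unadjusted p under 0.05 there were 1235 of 14989 genes with the follicular and 2777 with the adipocyte score. The members were thus below the share of all tested genes with the follicular score and near it with the adipocyte score. The follicular score was 0.46 ± 0.29 (SD, n = 7) in RP and -0.65 ± 0.61 (SD, n = 5) in RPC tumours. With it the median SE of the members was 0.47, against 0.29 without a covariate. The mean adipocyte score (0.52 and -0.73) and the mean stromal and immune score (0.34 and -0.47) were also lower in RPC tumours. As the scores went with genotype, these fits cannot fully tell other cells from genotype. The part of other cells in the differences was not tested beyond these fits.

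Mki67 and Top2a mark dividing cells: Mki67 encodes a protein that coats mitotic chromosomes, and Top2a untangles sister DNA. Mki67 stood at 138 to 394 CPM (median 189) in RP tumours and at 487, 860.4, 429, 236 and 509.7 CPM in RPC1 to RPC5. RP5 was the highest RP tumour and RPC4, at 236 CPM, lay inside the RP range. Mki67 rose 2.31-fold (log2 fold change 1.21 ± 0.29 SE; edgeR adjusted p = 0.019). Top2a stood at 97.2 to 278 CPM (median 137) in RP and at 324, 614, 298, 162 and 309.9 CPM in RPC tumours, again with RP5 above RPC4, and rose 2.26-fold (log2 fold change 1.18 ± 0.30 SE; edgeR adjusted p = 0.022).

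Foxm1, a transcription factor that activates many late cell cycle genes, was 1 of the 4 members whose call did not rest on any single tumour. It stood at 18.8 to 42.4 CPM (median 22.2) in RP tumours and at 60.00, 106, 57.9, 26.8 and 57.9 CPM in RPC1 to RPC5. It rose 2.38-fold (log2 fold change 1.25 ± 0.29 SE; edgeR adjusted p = 0.0156). RPC4 again fell within the RP range, below RP1, RP3 and RP5.

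**Figure D4:**
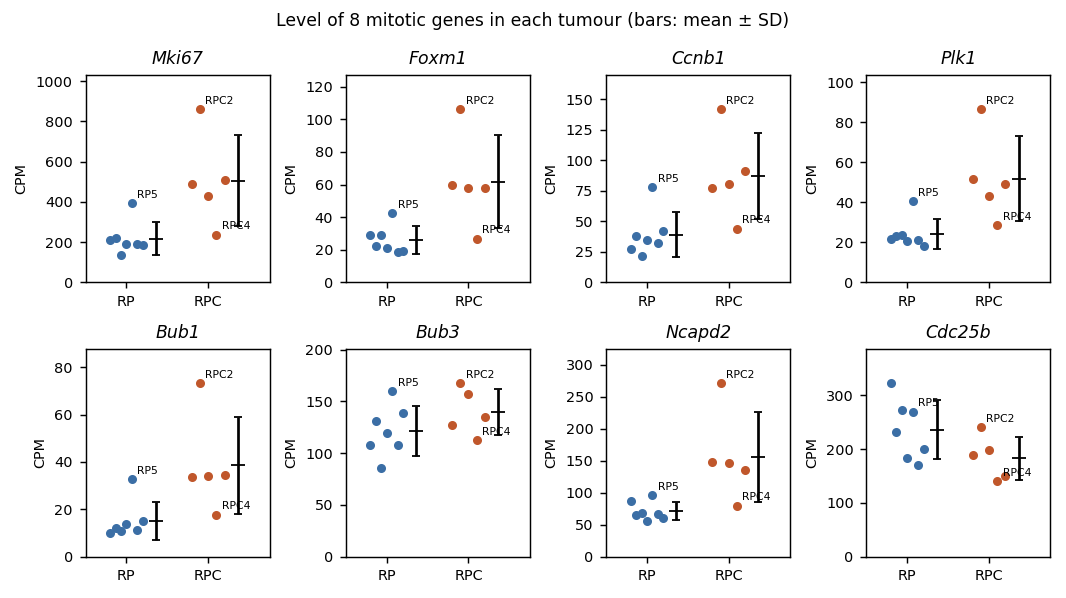
Level of 8 genes in each tumour (y axis, CPM), RP tumours in blue and RPC tumours in orange, with the mean ± SD of each group beside the points and RP5, RPC2 and RPC4 named. RP5 is the highest RP tumour in each panel but that of Cdc25b, and RPC4 is the lowest RPC tumour in all 8; only for Cdc25b is the RP mean the higher.

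Of the genes that set Cdk1 in motion, the cyclins Ccna2 (2.17-fold), Ccnb1 (2.22-fold) and Ccnb2 (2.22-fold) rose. Ccnb1, the main partner of Cdk1 in mitosis, stood at 21.4 to 77.8 CPM (median 34.5) in RP and at 77.5, 142, 80.2, 43.9 and 91.4 CPM in RPC tumours (log2 fold change 1.15 ± 0.31 SE; edgeR adjusted p = 0.0272). RPC1 was just below RP5, and RPC4 was close to the second highest RP tumour, RP7. The calls of Ccna2 and Ccnb2 were lost without any 1 of 8 tumours and that of Ccnb1 without any 1 of 6, RPC2 among them. Cdk1 itself was not called, at 32.0 to 109 CPM (median 49.8) in RP and 86.9, 148, 88.9, 54.7 and 83.3 CPM in RPC tumours (log2 fold change 0.67 ± 0.30 SE; edgeR adjusted p = 0.133). RP5 held more Cdk1 than each RPC tumour except RPC2. Neither of the 2 phosphatase genes passed the test. Cdc25c, at 7.39 to 23.0 CPM (median 8.22) in RP and 18.7, 36.6, 18.2, 11.3 and 16.4 CPM in RPC tumours, was not called (log2 fold change 0.86 ± 0.33 SE; edgeR adjusted p = 0.0843). Cdc25b was the only member with a negative value (log2 fold change -0.36 ± 0.18 SE; edgeR adjusted p = 0.169), at 171 to 322 CPM (median 232) in RP and 189, 240.5, 198, 141 and 150.0 CPM in RPC tumours. Its highest tumour was RP1 and its lowest RPC4.

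All 6 genes of the Aurora and Polo kinases and the chromosomal passenger complex rose, with a median log2 fold change of 1.05. Beside this count and those of the roles below, 9.64% of all tested genes were called higher. Plk1, the Polo kinase of mitotic entry and spindle assembly, stood at 18.3 to 40.7 CPM (median 21.6) in RP and 51.9, 86.6, 43.2, 28.6 and 49.2 CPM in RPC tumours and rose 2.13-fold (log2 fold change 1.09 ± 0.25 SE; edgeR adjusted p = 0.0156). The 6 RP tumours other than RP5 lay between 18.3 and 23.7 CPM, so RPC4 at 28.6 CPM was above them and below RP5. Aurka, the kinase of spindle poles, rose 2.02-fold, and Aurkb, the kinase of the passenger complex at centromeres, 2.42-fold. Aurkb was 10.3 to 23.7 CPM (median 11.3) in RP tumours and 32.2, 60.2, 31.4, 12.8 and 26.9 CPM in RPC tumours (log2 fold change 1.28 ± 0.31 SE; edgeR adjusted p = 0.0197), and in RPC4 it was below RP2, RP3 and RP5. The passenger partners Birc5 (survivin) and Incenp rose 2.12-fold and 1.82-fold. Plk4, which starts centriole duplication, rose 1.78-fold, a call lost without any 1 of 7 tumours.

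Spindle checkpoint genes differed among themselves. Bub1, a kinase that recruits the checkpoint to kinetochores, was 9.91 to 32.7 CPM (median 12.2) in RP and 33.8, 73.1, 34.0, 17.7 and 34.3 CPM in RPC tumours and rose 2.53-fold (log2 fold change 1.34 ± 0.35 SE; edgeR adjusted p = 0.0238). RPC1, RPC3 and RPC5 were above RP5 by less than 2 CPM. Ttk, which encodes the kinase Mps1, rose 2.25-fold (edgeR adjusted p = 0.0301), a call lost without any 1 of 7 tumours. Bub1b (log2 fold change 0.90 ± 0.31 SE; edgeR adjusted p = 0.0591) and Mad2l1 (log2 fold change 0.72 ± 0.25 SE; edgeR adjusted p = 0.063), whose products bind and inhibit Cdc20, were not called. Bub3, the binding partner of Bub1 and Bub1b, had the smallest difference of any member (log2 fold change 0.20 ± 0.15 SE; edgeR adjusted p = 0.347). It was 86.0 to 159.8 CPM (median 119.6) in RP and 127, 167, 158, 113 and 135 CPM in RPC tumours, and its highest and lowest tumour differed 1.95-fold, where the median member spanned 5.17-fold.

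Cdc20, the activator of the anaphase promoting complex and the target of the checkpoint, missed the threshold (log2 fold change 0.95 ± 0.31 SE; edgeR adjusted p = 0.0523). It was 23.5 to 55.8 CPM (median 28.0) in RP and 49.3, 129, 60.9, 30.5 and 50.04 CPM in RPC tumours, so that RPC1, RPC4 and RPC5 were below RP5. Ube2c, the E2 enzyme of that complex, rose 1.86-fold (edgeR adjusted p = 0.0442), a call lost without any 1 of 10 tumours, all but RP5 and RPC4. Espl1 (separase), which cuts cohesin at anaphase, rose 2.24-fold (log2 fold change 1.17 ± 0.27 SE; edgeR adjusted p = 0.0161). Its inhibitor Pttg1 (securin) was not called, at 7.91 to 39.3 CPM (median 17.4) in RP and 27.7, 43.7, 25.3, 19.1 and 29.5 CPM in RPC tumours (log2 fold change 0.63 ± 0.32 SE; edgeR adjusted p = 0.18). The Pttg1 level of RP5 was above each RPC tumour but RPC2.

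Among kinetochore genes Cenpf (2.498-fold), the motor gene Cenpe (2.32-fold) and Nuf2 (2.10-fold) rose. Cenpf, whose large protein coats the outer kinetochore, was 34.0 to 93.9 CPM (median 51.2) in RP and 129, 265, 121, 58.9 and 131 CPM in RPC tumours (log2 fold change 1.32 ± 0.31 SE; edgeR adjusted p = 0.017). It had the widest span of all members, 7.79-fold between the highest and the lowest tumour, and kept its call whichever tumour was left out. Ndc80, which pairs with Nuf2 in the microtubule-binding complex of the kinetochore, was not called (log2 fold change 0.58 ± 0.31 SE; edgeR adjusted p = 0.19). Cenpa, the histone H3 variant of centromeres, was not called either (log2 fold change 0.77 ± 0.30 SE; edgeR adjusted p = 0.0885), with RP5 at 42.9 CPM above RPC1, RPC3, RPC4 and RPC5.

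Of 8 genes for spindle motors and microtubule proteins 6 rose. Kif2c, a kinesin that shortens microtubules and corrects wrong attachments, had the largest fold change of the set. It was 11.5 to 31.2 CPM (median 13.3) in RP and 33.6, 80.1, 36.1, 19.5 and 33.5 CPM in RPC tumours (log2 fold change 1.36 ± 0.33 SE; edgeR adjusted p = 0.0193). Kif2c in RPC2 was 2.22 times the next RPC tumour, and the call was lost without it. Kif11, the motor that pushes spindle poles apart, was 25.6 to 76.5 CPM (median 28.3) in RP and 75.8, 159, 79.5, 38.4 and 82.3 CPM in RPC tumours and rose 2.44-fold (edgeR adjusted p = 0.0244). In Kif11 RP5 was 2.33 times the next RP tumour, the widest such gap of any member. The central spindle genes Kif23, Kif4 and Prc1 rose 2.17-fold, 2.17-fold and 2.03-fold, and Tpx2, the activator of Aurora A on the spindle, 1.87-fold. Kif20a (log2 fold change 0.75 ± 0.25 SE; edgeR adjusted p = 0.0543) and Nusap1 (log2 fold change 1.02 ± 0.34 SE; edgeR adjusted p = 0.0533) were not called.

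All 5 condensin I genes, which compact chromosomes, rose: Ncapd2 2.18-fold, Smc2 2.07-fold, Ncapg 1.98-fold, Ncaph 1.73-fold and Smc4 1.62-fold. Ncapd2 had the smallest p of all members. It stood at 55.5 to 96.7 CPM (median 66.5) in RP and at 149, 271, 147, 79.7 and 135 CPM in RPC tumours (log2 fold change 1.12 ± 0.24 SE; edgeR adjusted p = 0.0119), and its call was kept whichever tumour was left out. RPC1, RPC3 and RPC5 were above RP5, and RPC4 was between RP3 and RP1. The calls of Smc4, Ncapg and Ncaph were lost without any 1 of the same 10 tumours as that of Ube2c. The cytokinesis genes Anln, which scaffolds the contractile ring, and Ect2, which activates RhoA at the cleavage site, rose 2.05-fold and 2.14-fold. Anln was 30.5 to 67.2 CPM (median 35.9) in RP and 83.6, 121, 71.8, 42.7 and 83.3 CPM in RPC tumours (edgeR adjusted p = 0.0168).

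**Figure D5:**
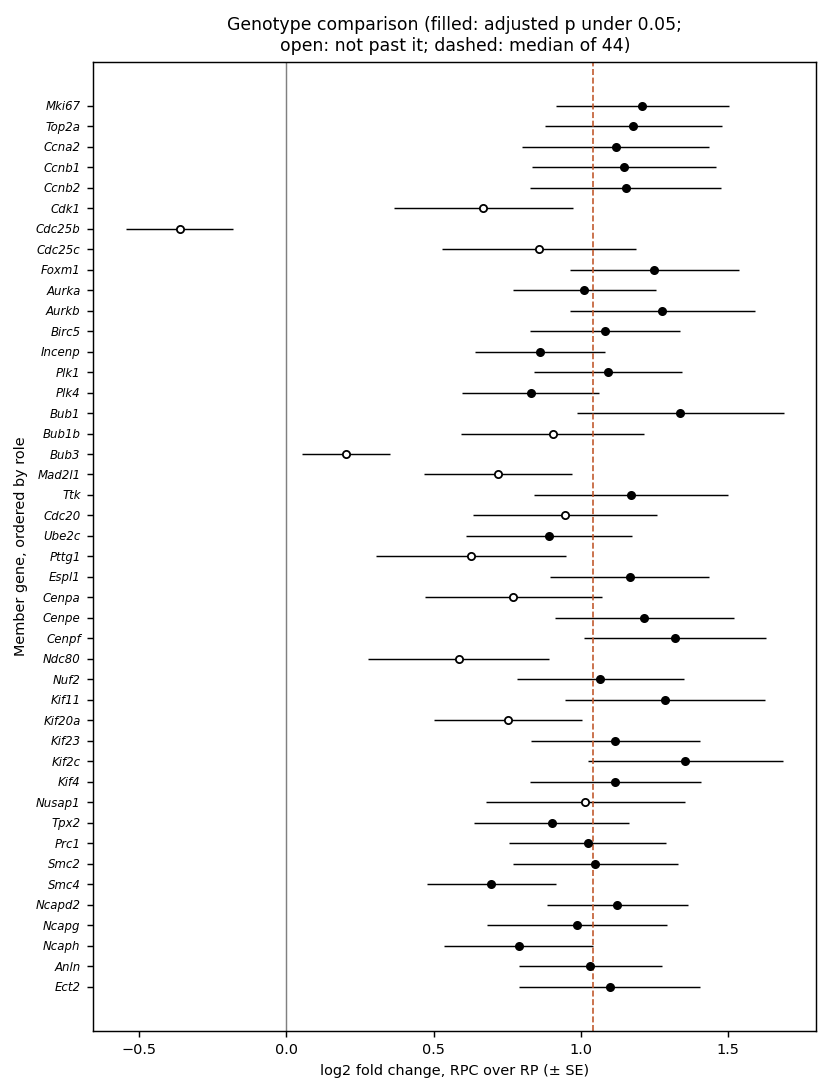
Log2 fold change of each member, RPC over RP tumours (x axis, ± SE), ordered by role; filled points have an edgeR adjusted p under 0.05 and the dashed line is the median of the 44 genes (1.04). The points gather around the median, with Bub3 and Cdc25b at 0.20 and -0.36.

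The 12 members that were not called split by their dependence on 2 tumours. Without RP5, 9 of them were called higher (Cdk1, Cdc20, Cdc25c, Bub1b, Mad2l1, Cenpa, Kif20a, Nusap1 and Pttg1). Without RPC4, 7 of these 9 were called, Cdk1 and Pttg1 being the exceptions. Bub3, Ndc80 and Cdc25b were not called in any fit with 1 tumour left out.

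Ratios between partner genes within a tumour need no scaling between libraries, and 8 pairs were compared with an exact two-sided permutation test over all splits of the 12 tumours, whose smallest possible p is 0.00126. For Bub1 over Bub3 the log2 ratio of counts was -3.10 ± 0.39 (SD, n = 7) in RP and -1.99 ± 0.54 (SD, n = 5) in RPC tumours, a difference of 1.11 (exact permutation p = 0.00379; Benjamini-Hochberg adjusted over the 8 pairs, 0.0202). RP5, at -2.29, lay among the RPC tumours, which ran from -2.67 in RPC4 to -1.19 in RPC2. Cdc25b over Cdc25c went from 4.49 ± 0.61 (SD, n = 7) to 3.26 ± 0.35 (SD, n = 5), a difference of -1.23 (exact permutation p = 0.00505; adjusted 0.0202). The Cdc25 difference lost its call without RPC2 or RPC5 (adjusted p up to 0.0606), whereas that of Bub1 over Bub3 was past the threshold with each of the 12 tumours left out.

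Ndc80 over Nuf2, partners in one complex, differed by -0.44 (exact permutation p = 0.0202; adjusted 0.0539), and this passed in 2 of 12 fits with 1 tumour left out. The other 5 pairs were not past the threshold. Ccnb1 over Ccnb2 was 0.61 ± 0.22 (SD, n = 7) and 0.61 ± 0.13 (SD, n = 5). Smc2 over Ncapd2 was -0.65 ± 0.38 (SD, n = 7) and -0.62 ± 0.17 (SD, n = 5). For Aurka over Aurkb (difference -0.21), Plk1 over Plk4 (0.24) and Pttg1 over Espl1 (-0.36) the adjusted p from the exact permutation test was 0.487, 0.212 and 0.392.

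Other mitotic genes were listed by function. Of 121 such genes 49 rose and none fell by edgeR, with a median log2 fold change of 0.62. For these genes and each list below, 9.64% of all tested genes were called higher and 8.61% lower. Spindle and cytokinesis genes had 16 of 28 called, among them Cit, the citron kinase of cytokinesis (3.47-fold), and Racgap1, the centralspindlin partner of Kif23 (2.14-fold). Centromere and kinetochore genes had 18 of 40, among them Nsl1 of the Mis12 complex and Gsg2, the haspin kinase, at 2.006-fold and 2.003-fold. Cohesin and condensin II genes had 8 of 13, with Ncapg2 at 1.799-fold and Smc3 at 1.46-fold. Mitotic entry genes had 3 of 13, with Cdca2 at 2.19-fold and Cdc25a at 1.32-fold.

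In 2 lists the called share was close to the 9.64% of all tested genes called higher. Of 15 anaphase promoting complex genes 2 were called, Anapc1 at 1.27-fold and Anapc5 at 1.24-fold, and the list median was 0.26. Of 12 DREAM and MuvB genes 2 were called, Mybl1 at 2.12-fold and Lin54 at 1.44-fold, and the median was 0.12. Among the 121 genes 3 had each RPC tumour above each RP tumour, no larger a share than the 3.62% of all tested genes, namely Anapc5, Cdc25a and Cdc16, the last named after its values were seen and not called. Of 35 DNA replication genes 21 rose and none fell by edgeR, with a median of 0.68, where 9.64% of all tested genes were called higher. Mcm6, a subunit of the replicative helicase, rose 1.83-fold, and it alone of that list had non-overlapping groups, where 3.62% of all tested genes had them in that direction. Ccne2, a G1 cyclin, rose 2.06-fold. Whether the members differed from the replication genes was not tested.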

How the data were processed

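Raw counts of reads by gene symbol were deposited by the authors, 1 table for each tumour, made with bcl2fastq 1.8.2, TopHat2 2.0.12 and HTSeq 0.6.1 on build mm9, per the submitters' processing notes. No source used here names the annotation or strand setting. Whether antisense reads were counted with a gene is therefore not known. Reads that the counter marked as ambiguous, 0.704% to 0.880% of each table, were given to no gene. The 5 summary rows of the counter, 28.0% to 34.3% of each table, were left out. Per the labels' protocols, poly(A) RNA was sequenced.

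Genes were kept by filterByExpr (minimum count 10), scaled by TMM and tested with edgeR 4.0.16 (robust quasi-likelihood F test, R 4.3.3, all 12 tumours, no covariate, Benjamini-Hochberg over 14989 genes, threshold 0.05). SEs were derived from F (fold change over its root). CPM uses TMM-scaled library sizes, and log2 CPM a prior count of 2. Ratios added 0.5 to each count. A marker score averages its genes' z-scores of log2 CPM. Within each genotype all pairs of libraries differed by more than sampling noise. The tests were tested on simulated data. Alternatives were DESeq2 1.42.0, limma 3.58.1 voom with sample weights, other scalings, filters and thresholds. Further ones were a replicate block, covariates from marker scores and leaving out tumours.

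All members were named. Of the other lists the rule took the called genes with the 2 smallest p in each direction, of the cell type markers the most abundant gene and any at 0, and the 3 engineered genes. Older symbols from RefSeq were used for 5 genes. Members and lists were chosen with earlier results of these data known.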

Additional observations from a re-analysis of the deposited data

Results flagged for a closer look

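In RP5 many members lay far from the other 6 RP tumours: the gap to the next tumour took an unusually large part of the group's range (Dixon's test at 95%). Of 106 groups of values examined (44 genes, 8 ratios and the summed level in each genotype), 33 were marked in RP5, 1 in RP7 and 1 in RPC2. Chance marks about 1 in 20, and values of 1 tumour are not independent of each other. Such values in RP5 were 394 CPM for Mki67, 278 CPM for Top2a, 83.0 CPM for Ccna2, 77.8 CPM for Ccnb1, 55.6 CPM for Ccnb2, 55.8 CPM for Cdc20, 23.0 CPM for Cdc25c, 23.7 CPM for Aurkb, 40.7 CPM for Plk1, 26.3 CPM for Plk4, 32.7 CPM for Bub1, 43.1 CPM for Bub1b, 27.7 CPM for Ttk and 32.1 CPM for Birc5. Among kinetochore, motor and spindle genes they were 42.9 CPM for Cenpa, 61.5 CPM for Cenpe, 76.5 CPM for Kif11, 53.6 CPM for Kif20a, 54.9 CPM for Kif23, 31.2 CPM for Kif2c, 42.7 CPM for Kif4, 70.5 CPM for Nusap1 and 99.97 CPM for Prc1. Among anaphase, condensin and cytokinesis genes they were 39.3 CPM for Pttg1, 29.7 CPM for Espl1, 96.0 CPM for Smc2, 255 CPM for Smc4, 29.6 CPM for Ncapg, 51.7 CPM for Ncaph, 67.2 CPM for Anln and 64.1 CPM for Ect2. The summed level of the members in RP5 was 3491 CPM, against 2097 CPM in the next RP tumour, and its log2 ratio of Bub1 over Bub3 was -2.29. RP5 had 57.3 M gene counts, the most of any tumour. With its counts thinned to the median depth, 33 members were called higher, against 32 at full depth. The shares of all tested genes called higher were 9.53% and 9.64%, and 31 of the 32 calls were kept.

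Kif2c in RPC2 stood at 80.1 CPM, against 36.1 CPM in the next RPC tumour. The log2 ratio of Plk1 over Plk4 was 0.010 in RP7 and at least 0.54 in the other RP tumours.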

How the results depend on the processing

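The member counts moved with the tumours and covariates, while the median log2 fold change kept its direction under all 25 alternatives. Members called higher numbered 32 in the main analysis, 0 against a 1.5-fold change (30 at an unadjusted p under 0.05), 0 with the follicular and 0 with the adipocyte score (1 and 9), 6 with the stromal and immune score, and 4 to 41 with 1 tumour left out. Genes called of all tested in either direction numbered 2736, and under these settings 153, 3, 57, 1685 and 1074 to 3510, while voom called 6357. With the stromal and immune score 5.59% of all tested genes were called higher. The other mitotic genes called higher numbered 49, then 0, 0, 0, 7 and 10 to 72, and 85 with voom. Those called lower numbered 0 to 1 with a tumour left out and 1 with voom. Of all tested genes 1620 had an unadjusted p under 0.05 against a 1.5-fold change, 1235 with the follicular and 2777 with the adipocyte score. The median member value was 0.25 with the follicular score and 0.77 to 1.23 with a tumour left out. In the follicular fit Cdc20 (-0.0426), Bub1b (-0.11) and Incenp (-0.0305) reversed, uncalled. Crebbp, uncalled, was 0.19 with voom and -0.0774 to 0.19 with a tumour left out.

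Tumour numbers are shared between the groups, but same-numbered tumours correlated at -0.11 to 0.07, none best with its own number. These values gave no sign that the numbers pair the tumours, and they cannot exclude it. On replicates 1 to 5 with the replicate block 463 genes, 0 members and 3 other mitotic genes were called (868, 1 and 7 without it). Crebbp was 0.0054 in that fit. An unadjusted p under 0.05 was reached by 41 members and by 3870 of 14838 tested genes with the block. With it 0 ratios were past the threshold, as 5 pairs cannot give a p under 0.0625. With tumours left out 1 to 3 ratios were. Ccnb1 over Ccnb2, near 0, was 0.073 with the block, 0.0031 with 5 added to counts and -0.0613 to 0.0537 with a tumour left out, and Smc2 over Ncapd2 -0.0508 to 0.13. On the gene strand alone a CHR was found in 55.6% and a CCAAT box in 47.2% of members with a window, against 10.1% and 24.8% of all. The cause of these changes was not tested. The smallest count of any member was 71.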
